A study of Mus musculus with 2 samples.

Results

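The regions described here are places inside the exons of protein-coding genes where chromatin was open to the nuclease DNase I in both libraries of the series. DNase-seq maps such openings by sequencing the ends that DNase I leaves when it cuts DNA not wrapped tightly in nucleosomes. The tissue, embryonic facial prominence, gives rise to the jaws, nose and palate. It was dissected on embryonic day 11.5 from healthy embryos of the mouse strain B6NCrl, and both sexes were pooled. The 2 libraries formed 1 group, were labelled biological replicates 1 and 2, and came from separate biosamples that carry the same donor label. There was no second condition, so no comparison between conditions and no test was possible. The spread between libraries rests on n = 2, and the sequencing instruments differed in part between them.

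The peaks were chosen by measured values, namely the positions of the peaks called in both libraries. A shared exonic peak was a replicate 1 peak on chromosomes 1 to 19 that met 3 conditions. A replicate 2 peak covered at least 75 bp of it, its midpoint lay in an exon of a protein-coding gene, and that midpoint was over 1 kb from every protein-coding transcription start site (TSS). There were 2926 such peaks. The authors' file of replicate 1 held 205599 peaks on these chromosomes, of which 83993 (40.9%) were matched in this way by 1 of the 213624 replicate 2 peaks. Of the 7029 replicate 1 peaks that met the exon and TSS conditions, 41.6% were matched, close to the share of all peaks. Exonic peaks made up 3.42% of all replicate 1 peaks and 3.41% of all replicate 2 peaks, a mean of 3.41% ± 0.0057 (SD, n = 2), and 3.48% of the shared peaks. Every peak was 150 bp wide. Each carried a whole number deposited by the authors, called strength here, whose maximum on these chromosomes was 134 in replicate 1 and 149 in replicate 2. No source used here says what strength counts, and it was not shown to be on one scale in both libraries. It is therefore read only as an order of peaks within a library. Read depth is unknown. In a tissue of mixed cells, a weak peak in many cells and a strong peak in few cells cannot be told apart.

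Exons are known mainly for the messenger RNA they encode, but the same DNA can also hold regulatory sequence. Some coding exons are enhancers, stretches bound by transcription factors that raise the activity of a gene, at times of a neighbouring gene. Exons of Dync1i1 and Hdac9 are known examples, acting on Dlx5 and Dlx6 and on Twist1, which pattern the limb and face. Other open exonic sites hold CTCF, a zinc-finger protein that binds DNA in one orientation and anchors chromatin loops together with cohesin. Genes of developmental transcription factors often lie in broad domains of unmethylated, CpG-rich DNA that extend from the promoter into the exons.

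Of the motifs searched, CTCF's binding sequence had the largest ratio between its share of the shared exonic peaks and its share of exon sequence. The exon sequence compared was all that over 1 kb from a TSS, peaks included. The best-ranked peaks with the CTCF sequence are therefore shown for each kind of exon. A 12-base core was searched on both strands of each 150 bp peak. In the 30 bases printed for each site, read 5′ to 3′ on the strand that matched, capitals mark the core. Coordinates are mm10.
Ror2 3′ UTR, chr13:53109743-53109772, plus strand: catcctccgCCAGCAGGGGGCtcacggagc
Slc4a3 3′ UTR, chr1:75559667-75559696, minus strand: caaaaaccaCCACCAGAGGGCtacacacgg
Synpo2l coding sequence, chr14:20661153-20661182, minus strand: ttcatgcagCCACTAGGGGGCaggagttac
Gpr153 coding sequence, chr4:152283370-152283399, minus strand: tgcgtacggCCACCAGGGGGCgttgggacc
Mapk1ip1 5′ UTR, chr7:138840905-138840934, plus strand: ctgtctcatCCAGCAGAGGGCagcagctcc
Pomgnt2 5′ UTR, chr9:121983712-121983741, plus strand: atcctatcgCCACCAGGGGGCctcagcgag
Ccnd2 noncoding transcript, chr6:127147861-127147890, plus strand: acatgtctgCCACTAGGTGGCagcacagac
Fignl1 noncoding transcript, chr11:11788585-11788614, minus strand: cttctgttgCCACTAGGGGGCgagcgcctc

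The peak over the Ror2 site, in the last exon of a receptor for Wnt5a, had strength 94 in replicate 1 and 131 in replicate 2. The Slc4a3 peak, in the gene of an anion exchanger, had strengths of 94 and 124. The Synpo2l peak, in the last exon of an actin-associated protein gene, had strengths of 88 and 130. The peak of Gpr153, an orphan receptor gene, had 86 and 124. The medians of all shared exonic peaks were 33 and 65. The sites shown were chosen by rank of strength, so high values were fixed by that choice. The 5′ UTR sites were weaker, but were chosen from only 4 peaks with the core, beside 153 in 3′ UTRs and 76 in coding sequence. Mapk1ip1 had strengths of 59 and 93, and Pomgnt2, which encodes a glycosyltransferase acting on dystroglycan, had 31 and 62, at or below those medians. Among exons of noncoding transcripts, the peak of Ccnd2, a cyclin gene, had strengths of 73 and 116. The peak of Fignl1, a gene of DNA repair, had strengths of 83 and 104.

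Coding sequence and 3′ untranslated regions (3′ UTRs) held most of the peaks. By the midpoint, 1201 peaks (41.0%) lay in coding sequence, 55 (1.88%) in 5′ UTRs and 1226 (41.9%) in 3′ UTRs. The other 444 (15.2%) lay in exons found only in noncoding transcripts of protein-coding genes, such as retained introns. A base that was coding in any transcript was counted as coding. In each library's own exonic peaks, matched or not, coding sequence took 37.8% in replicate 1 and 40.9% in replicate 2 (39.4% ± 2.15, SD, n = 2). The 3′ UTR took 43.9% and 42.2% (43.0% ± 1.21), noncoding transcripts 16.9% and 15.1% (SD 1.23), and the 5′ UTR 1.38% and 1.78% (1.58% ± 0.286). The coding and 3′ UTR shares of the shared peaks were within 1 SD of these means, and the 5′ UTR share was more than 1 SD above. Set beside the libraries themselves, the coding and 5′ UTR shares of the shared peaks, 41.0% and 1.88%, were above both. The 3′ UTR share, 41.9%, was below both. The share of replicate 1 peaks matched in replicate 2 was 56.7% for 5′ UTRs, 45.2% for coding sequence, 39.7% for 3′ UTRs and 37.4% for noncoding transcripts, set beside 41.6% for all exonic peaks. In the other direction the kinds were closer together. Of replicate 2 peaks, 42.3% in 5′ UTRs, 40.1% in coding sequence, 39.0% in 3′ UTRs and 38.1% in noncoding transcripts were matched, beside 39.4% of all its exonic peaks. The coding and 5′ UTR shares depend on which transcripts are used, as given in the closing section.

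Per length of sequence, exons held more shared peaks than introns did. Of the sequence over 1 kb from a TSS, exons covered 67.3 Mb and held 43.5 shared peaks per Mb, introns 27.7 per Mb and intergenic sequence 22.1 per Mb. The 5′ UTRs were densest, with 85.0 shared peaks per Mb, but covered only 0.647 Mb. Coding sequence, with 24.5 Mb, held 49.0 per Mb, 3′ UTRs 40.2 per Mb and noncoding-transcript exons 38.0 per Mb. The order of coding sequence, 3′ UTR, intron and intergenic sequence was the same in each library's full set of peaks. Coding sequence held 109 and 122 peaks per Mb in replicates 1 and 2 (115 ± 9.20, SD, n = 2), 3′ UTRs 101 in both, introns 76.7 and 83.3, and intergenic sequence 63.4 and 62.3. Base composition also differed, and its part was not tested: the median GC content of 150 bp tiles was 50.7% in coding sequence, 45.3% in 5′ UTRs and 43.3% in 3′ UTRs. Distance from a protein-coding TSS differed too, with medians of 4159 bp for shared exonic, 13429 bp for intronic and 36730 bp for intergenic peaks. The part of distance in these densities was not tested.

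**Figure D1:**
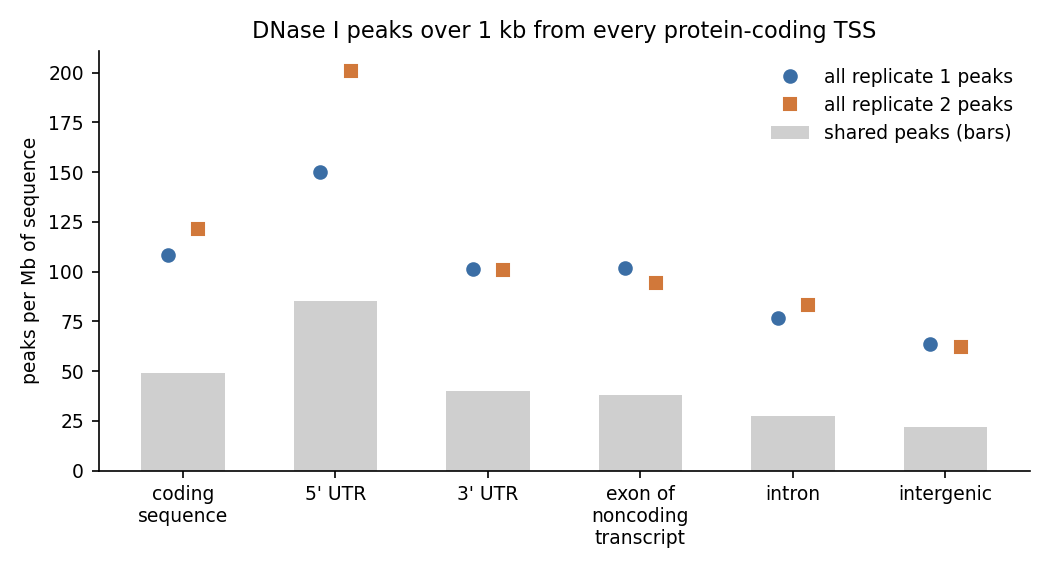
Peaks per Mb of sequence over 1 kb from every protein-coding TSS, for 4 kinds of exon, introns and intergenic sequence. Grey bars are shared peaks, circles all replicate 1 peaks and squares all replicate 2 peaks; exonic kinds lie above introns, which held 27.7 shared peaks per Mb, and intergenic sequence, which held 22.1.

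The position of the peaks within transcripts differed by kind. The coding peaks lay in exons with a median length of 627 bp, and 52.0% of them in an internal exon. For 218 coding peaks (18.2%) the exon was shorter than the peak itself. In all, 464 coding peaks crossed an exon edge. These had a median GC content of 55.3% and median strengths of 30 and 61.5, while the 737 that lay wholly in exons had 64.7% and strengths of 38 and 68. The 3′ UTR peaks lay in long exons, with a median of 2491 bp, and 1177 of them (96.0%) were wholly exonic. Their midpoints had a median distance of 819 bp from the stop codon and of 887.5 bp from the transcript's end. The 5′ UTR peaks, by the rule at least 1 kb from every TSS, lay mostly in an internal exon, 29 of 55.

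Many of these peaks were close to the limit of 1 kb. The median distance to the nearest protein-coding TSS was 4159 bp. Between 1 and 2 kb lay 764 peaks (26.1%), between 2 and 5 kb 861 (29.4%), between 5 and 10 kb 517 (17.7%), between 10 and 50 kb 652 (22.3%) and beyond 50 kb 132 (4.51%). For 2389 peaks (81.6%) the nearest TSS was that of the gene whose exon held the peak. The 3′ UTR peaks had another gene's TSS as the nearest more often than the others, in 343 of 1226. GC content was lower with distance, from a median of 58.0% between 1 and 2 kb to 50% beyond 50 kb. Median replicate 1 strength was 35 in the nearest of these bins and 25.5 in the farthest, and in replicate 2 it was 63 and 60.5. TSSs of other gene types, such as antisense RNAs, were within 1 kb of 167 peaks (5.71%). Those 167 had median strengths of 38 and 69, and the rest 33 and 64.

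Matched exonic peaks had a higher median strength than unmatched ones, though their ranges overlapped widely. The peaks were chosen for being matched, and why matching went with strength was not tested. The following strengths are therefore a description only. The shared exonic peaks had a median strength of 33 in replicate 1, with quartiles of 23 and 47.75 and a range from 3 to 113. In replicate 2 the median was 65, the quartiles 48 and 85 and the range from 5 to 144. The median peak stood at percentile 76.6 of all replicate 1 peaks, and its match at percentile 74.1 of all replicate 2 peaks. Unmatched exonic peaks of replicate 1 had a median of 10 and a range from 1 to 115. Among kinds of exon the medians were 35 and 65 in coding sequence, 43 and 77 in 5′ UTRs, 33 and 65 in 3′ UTRs and 28 and 62.5 in noncoding-transcript exons. Shared promoter peaks had medians of 57 and 97, intronic ones 27 and 62, and intergenic ones 28 and 64. Exonic peaks thus lay between promoter and intronic peaks in both libraries, much nearer to the intronic ones. Across the 2926 matched pairs, Pearson's correlation of strength was 0.844 and Spearman's 0.827. The pairs share the same DNA and base composition, and the peaks were chosen for being matched.

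**Figure D2:**
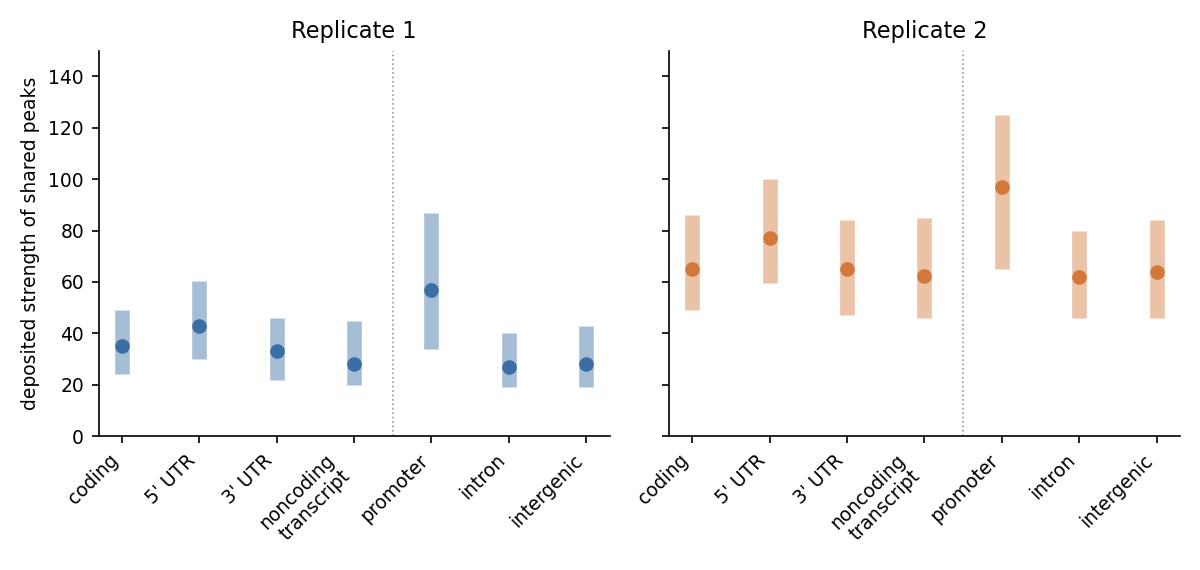
Deposited strength of shared peaks in replicate 1 (left) and of their matches in replicate 2 (right), for 4 kinds of exon and, right of the dotted line, promoter, intronic and intergenic peaks. Points are medians and bars run from the lower to the upper quartile over peaks; promoters are highest, with medians of 57 and 97.

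Peaks at the edge of the rule had these values. Peak starts lie on a grid, so no overlap falls between 70 and 90 bp. The 197 replicate 1 peaks just outside, with an overlap of 70 bp, had median strengths of 22 and 46. The 330 just inside, with 90 bp, had 26 and 52, and the 927 with the full 150 bp had 39 and 73. The 116 matched exonic peaks between 900 and 1000 bp from a TSS had medians of 36 and 65.5, and the 97 between 1000 and 1100 bp had 38 and 62.

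The strongest coding peak by mean rank lay in exon 7 of 24 of Inpp5b (chromosome 4, 124751456 to 124751605), which encodes an inositol phosphatase. Its strengths were 108 and 136, and the TSS of the noncoding gene Gm12915 was 177 bp away. The others among the 5 strongest coding peaks were over 1 kb from a TSS of any annotated gene type. Sptbn4, a spectrin gene, had strengths of 102 and 144 in exon 33 of 36. Zfp771, a zinc-finger gene, had strengths of 112 and 134 in its last exon, and its peak held 29 CpG dinucleotides at 74.7% GC. Apold1, known from endothelial cells, had strengths of 107 and 132, and Lpar5, a receptor for lysophosphatidic acid, had 101 and 130. All 5 were at or above 61.3% GC.

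In 3′ UTRs the strongest peak by mean rank over both libraries, though the highest in neither, was in Sox12, a SOX transcription factor gene with a single exon, with strengths of 101 and 136. H13, which encodes a signal peptide peptidase, had 97 and 138 at 15992 bp from its nearest TSS. The Ror2 peak described above lay 128678 bp from its nearest protein-coding TSS, that of Nfil3, and thus was the farthest of these 5 from a start site. The agouti gene, a, which acts on pigment cells, had strengths of 97 and 129. Scarf2, a scavenger receptor gene mutated in a human syndrome with facial features, had 93 and 131. In 5′ UTRs the strongest by mean rank were A930004D18Rik with 104 and 141 and Rap2b, a small GTPase gene, with 106 and 136. Sf3b5, of the splicing machinery, followed with 96 and 133, Zfp503, a zinc-finger gene of embryonic patterning, with 87 and 133, and Nup160, a nuclear pore gene, with 97 and 123.

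The shared exonic peaks fell in 2274 genes. These were 10.9% of the 20807 protein-coding genes and 11.4% of the 19870 genes with exon sequence over 1 kb from every TSS. Most of them, 1742, had 1 such peak, 389 had 2, 100 had 3, and 43 had 4 or more. Genes with a shared exonic peak had more of this exon sequence, a median of 3999.5 bp, than the genes without, 2406.5 bp. For the 43 genes with 4 or more the median was 3986 bp, close to that of all genes with a peak. The peaks in a gene are not independent. In replicate 1, 392 peaks shared a hotspot, a wider enriched region deposited by the authors, with another shared exonic peak, and 163 peaks overlapped another one. The 2926 peaks were matched by 2858 distinct replicate 2 peaks.

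Of the 10 genes with the most peaks, 4 encode transcription factors of early patterning: Zic1, Pou3f3, Sox11 and Six6. Zic1, a zinc-finger factor of the neural plate border, had 7 peaks. Those over 3′ UTR sequence had strengths of 19, 25, 38, 27 and 34 in replicate 1 and of 23, 37, 45, 38 and 39 in replicate 2. Those over coding sequence had 34 and 42 in replicate 1 and 37 and 63 in replicate 2. All but 1 of the Zic1 peaks were in a single replicate 1 hotspot of 6846 bp, and the TSS nearest to all its 3′ UTR peaks was that of the neighbouring Zic4. Pou3f3, a POU homeodomain factor gene with a single exon, had 6 peaks. Its coding peaks had strengths of 31 and 48 in replicate 1 and 42 and 71 in replicate 2, and its 3′ UTR peaks 40, 29, 18 and 20 in replicate 1 and 62, 49, 31 and 40 in replicate 2. In replicate 2 these Zic1 peaks also shared 1 hotspot, of 6339 bp. All but the farthest of the Pou3f3 peaks lay in a replicate 1 hotspot of 11532 bp, but in replicate 2 the hotspots of the Pou3f3 peaks were from 66 to 896 bp long. The open domain was thus wide in both libraries for Zic1 and in replicate 1 alone for Pou3f3.

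Sox11, a SOX factor of neural and mesenchymal progenitors, had 6 peaks, all in its long 3′ UTR. From the far end of the transcript towards its start, their replicate 1 strengths were 20, 31, 33, 54, 51 and 53. The matched replicate 2 peaks had 52, 59, 57, 86, 101 and 79. The 3 peaks within 4 kb of the TSS were thus above the 3 farther ones in both libraries. Six6, a homeodomain factor of eye and pituitary, had 5 peaks, all in its 3′ UTR, with strengths of 36, 21, 35, 26 and 29 in replicate 1 and 65, 29, 24, 47 and 42 in replicate 2. The order of the Six6 peaks differed between the libraries: the second highest in replicate 1 was the lowest in replicate 2.

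Fzd2, a Wnt receptor gene with a single exon, had 5 peaks, 1 coding with strengths of 42 and 71 and 4 in the 3′ UTR with 25, 33, 40 and 38 in replicate 1 and 69, 69, 75 and 76 in replicate 2. The 3′ UTR peaks of 25 and 33 overlapped and were matched by the same replicate 2 peak, so the 5 Fzd2 peaks stood against 4 in replicate 2. The density in replicate 1 was 1.88 shared peaks per kb of exon sequence. Mex3a, which encodes an RNA-binding protein, had 1 coding peak with strengths of 54 and 103 and 4 weaker 3′ UTR peaks with 24, 22, 43 and 22 in replicate 1 and 48, 39, 79 and 31 in replicate 2. In Mex3a the coding peak was the highest in both libraries and the precursor of the microRNA Mir1905 started 389 bp from it.

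Tchh, which encodes trichohyalin, a structural protein of the hair follicle, had 7 peaks, all in the coding part of its last exon. In replicate 1 they had strengths of 45, 66, 64, 50, 36, 36 and 64, and in replicate 2 of 68, 91, 104, 68, 38, 43 and 87. The same 3 peaks were highest in both libraries. For 4 of these 7 peaks the deposited hotspot had exactly the same bounds in both libraries. That held for only 13 (0.444%) of all shared exonic peaks and for 0.952% of all shared peaks. The Tchh coding sequence is known to be built of repeated units.

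The other genes with most peaks differed in that their peaks were in noncoding-transcript exons or were spread over a large gene. Creb5, a basic leucine zipper factor gene, had 7 peaks, 5 in noncoding-transcript exons and 2 in the 3′ UTR, with strengths from 13 to 32 in replicate 1 and from 24 to 85 in replicate 2. Its density was only 0.294 per kb of exon. Lrba, a large gene of vesicle traffic, had 3 coding peaks with strengths of 16, 50 and 34 in replicate 1 and 36, 103 and 62 in replicate 2. The other 2 Lrba peaks, 12 and 10 in replicate 1, overlapped and were matched by the same replicate 2 peak of strength 55. Adamts18, a metalloprotease gene, had 5 of the weakest peaks, all in noncoding-transcript exons, at 8, 8, 9, 9 and 3 in replicate 1 and 5, 5, 16, 15 and 10 in replicate 2. The first 2 of these overlapped and were matched by the same replicate 2 peak. In the other 7 of the 10 genes each peak had a replicate 2 peak of its own.

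**Figure D3:**
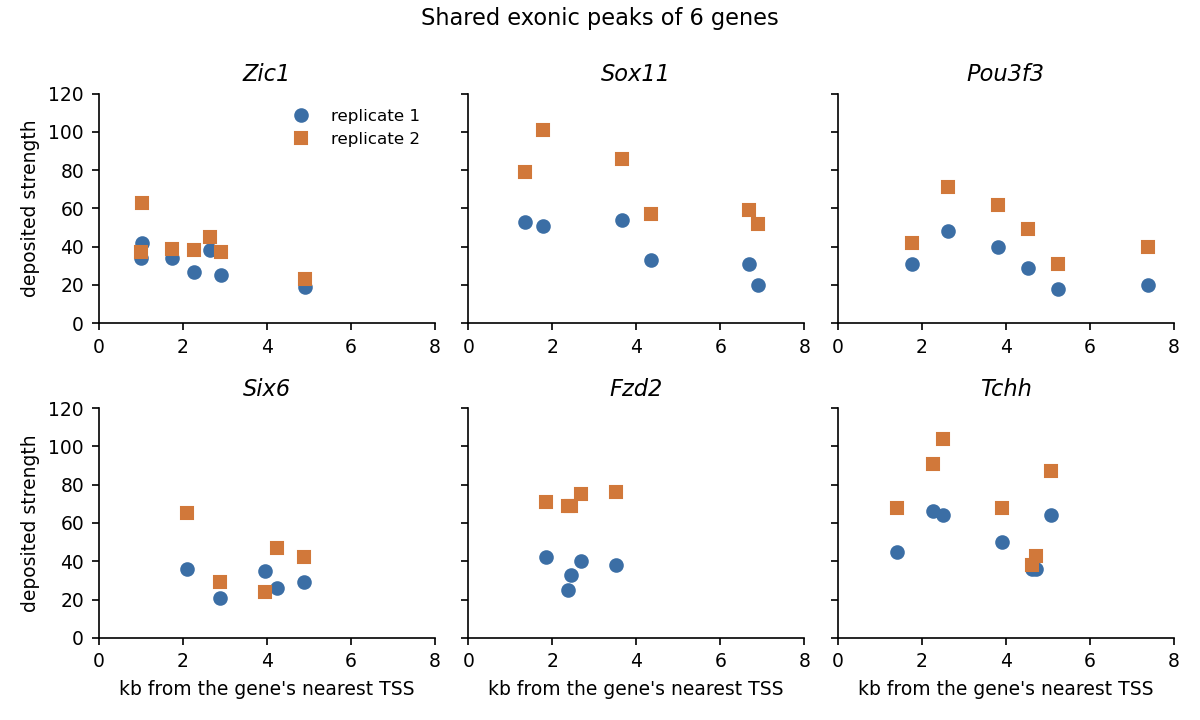
Deposited strength of each shared exonic peak against its distance in kb from the nearest TSS of its own gene, for 6 of the 10 genes with most peaks. Circles are replicate 1 and squares the matched replicate 2 peaks; in Sox11 the 3 peaks within 4 kb, with 54, 51 and 53 in replicate 1, are above those farther away.

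Lists of genes for cell types and pathways of the face differed widely in the share of genes that held a shared exonic peak. Of 57 craniofacial transcription factor genes, 36 (63.2%) did, beside 11.4% of all genes with such exon sequence. They held 55 peaks, or 23.5 per 100 kb of exon sequence, beside 4.42 per 100 kb over all genes. The peaks were 28 in 3′ UTRs, 19 in coding sequence, 7 in noncoding-transcript exons and 1 in a 5′ UTR. Their median strengths, 38 and 58 beside 33 and 65 for all shared exonic peaks, did not stand above in both libraries. The median length of their replicate 1 hotspots was 946 bp, beside 314 bp for all shared exonic peaks. Peaks in the same hotspot each counted it. Other lists, of few peaks, also had long hotspots: 969.5 bp for erythroid and leukocyte genes, 671.5 bp for cartilage, bone and matrix genes and 582 bp for neural genes. The remaining lists with a peak had medians of 428 bp or less. The craniofacial factor peaks had a median distance of 2629 bp from a TSS, beside 4159 bp for all shared exonic peaks, and 19 of the 55 lay within 2 kb. The part of this distance in the hotspot length was not tested. With the limit at 2.5 kb, 36.8% of the listed genes and 8.15% of all genes held a peak. With a match over at least 90% of the peak, 15.8% and 4.58% did. On the grid of peak starts, that setting kept only matches over the full 150 bp.

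Sox9, the master factor of cartilage, had 4 peaks, the most in this list, with strengths of 54 and 49 in coding sequence and 30 and 38 in the 3′ UTR in replicate 1, and of 76, 68, 67 and 84 in replicate 2. The strongest by replicate 1 was in Shox2, a homeobox factor of palate and limb, with 71 and 103 in coding sequence. Mecom, a zinc-finger factor, had 63 and 103 in a noncoding-transcript exon. Foxc1, a forkhead factor of skull and eye development, had 59 and 102 in its 3′ UTR. The lowest in replicate 1 was Tshz2, with 13 and 41, and the lowest in replicate 2 was a 3′ UTR peak of the forkhead gene Foxf1, with 24 and 27.

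Several families of related factors were represented. Of the Dlx homeobox genes, which pattern the pharyngeal arches, Dlx1, Dlx2, Dlx4, Dlx5 and Dlx6 had shared exonic peaks and Dlx3 had none. Dlx5 had strengths of 37 and 59 in coding sequence and Dlx2 had 31 and 48 in replicate 1 and 42 and 70 in replicate 2 in its 3′ UTR. Msx1, a homeobox factor of tooth and palate, had 41 and 62 in the 3′ UTR and 40 and 57 in coding sequence. Twist1, a basic helix-loop-helix factor of neural crest mesenchyme, had 29 and 62 in its 3′ UTR, and its paralogue Twist2 had 33 and 32 in replicate 1 and 73 and 44 in replicate 2. Each of the 6 listed forkhead genes, Foxc1, Foxc2, Foxd1, Foxd2, Foxf1 and Foxf2, had at least 1 peak. No shared exonic peak, as defined here, was found in Prrx1, Alx1, Alx4, Tfap2a, Runx2 and Snai1 among others, 21 of the 57. Unmatched peaks and peaks within 1 kb of a TSS did not count. In replicate 1 alone, 80.7% of the 57 genes had an exonic peak over 1 kb from every TSS.

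A few peaks in the listed factor genes were far from any protein-coding TSS. Pax3, a paired-box factor of neural crest and muscle, had 1 coding peak at 3047 bp from the nearest TSS with strengths of 36 and 40. Its other coding peak, at 75247 bp, had 26 and 62. Zfhx4, a large homeodomain and zinc-finger gene, had 38 and 72 in a noncoding-transcript exon at 88519 bp.

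Of 36 facial signalling genes, 15 (41.7%) had a shared exonic peak, with 21 peaks in all and median strengths of 36 and 75. Among ligands, Fgf8, a growth factor of facial ectoderm, had 2 coding peaks with strengths of 43 and 36 in replicate 1 and 95 and 54 in replicate 2. Bmp4, which acts in jaw and tooth development, had 49 and 95, Shh, the hedgehog ligand, had 33 and 52, and Wnt5a, a ligand of outgrowth, had 32 and 69. Among receptors, Fgfr2 had 67 and 104, Fgfr1 59 and 102, Tgfbr2 50 and 91 and the Wnt co-receptor Lrp6 49 and 98. The Fgfr2 and Wnt5a peaks lay in noncoding-transcript exons, 1020 and 1507 bp from the nearest TSS, and the Fgfr1 peak held the CTCF core. The peaks of these ligands and receptors, and those of Fzd2 given above, overlapped in strength in both libraries. Gli3, a transcription factor of the hedgehog pathway, had a coding peak with 30 and 55 at 250971 bp from the nearest TSS. Of the retinoic acid genes, Cyp26b1, which breaks retinoic acid down, had 33 and 81, and the receptor gene Rarg had 31 and 62 in replicate 1 and 56 and 92 in replicate 2.

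Genes that mark other cells gave lower shares than the craniofacial factor and facial signalling lists, over few genes. Each share in this paragraph was above the 11.4% of all genes. Per 100 kb of exon sequence, neural genes held 14.7 peaks, endothelial genes 8.97, erythroid and leukocyte genes 5.13 and muscle genes 2.66. Facial signalling genes held 13.7 and all genes 4.42. Of the 18 neural genes 5 (27.8%) had a peak, among them the proneural factors Neurog2 with 77 and 108 and Neurod1 with 74 and 118. Of the 18 endothelial genes 5 (27.8%) did, with Plvap, a protein of vessel fenestrae, at 90 and 120. Of 12 erythroid and leukocyte genes 2 (16.7%) did: Klf1, the erythroid Krüppel-like factor, with 94 and 114, and Spi1, a myeloid factor, with 85 and 122. The genes named here from the neural and endothelial lists had the highest peaks of those lists. Over the whole lists the median strengths were 37 and 59 for neural genes and 42 and 67.5 for endothelial genes, near the 33 and 65 of all shared exonic peaks. Lower peaks included those of the sensory neuron factor Pou4f1, with 29, 17 and 25 in replicate 1 and 40, 16 and 25 in replicate 2, and that of the endothelial receptor gene Tie1, with 15 and 27. Of the 17 genes on the muscle list 4 (23.5%) did: the myogenic factors Myod1 with 24 and 60 and Myf6 with 22 and 55, the actin gene Acta1 with 29 and 52, and Lyl1 with 53 and 105. Lyl1 is better known as a factor of blood and vessel cells.

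Of 24 cartilage, bone and matrix genes 6 (25%) had a peak, beside 11.4% of all genes. Col2a1, the main collagen of cartilage, had 74 and 112 in a noncoding-transcript exon, 1200 bp from the nearest TSS. The fibrillin gene Fbn2 had 58 and 109. Sp7, a factor of bone-forming cells, had 21 and 35 in replicate 1 and 70 and 80 in replicate 2. Of 26 genes of chromatin and transcription regulators 5 (19.2%) had a peak, also above the share of all genes. The highest was in Kmt2a, a histone methyltransferase, at 55 and 81. Per 100 kb of exon sequence, the chromatin and transcription regulator list held 2.53 peaks and the cartilage list 5.10, beside 4.42 for all genes. Of 16 housekeeping genes only Gusb (6.25%) had a peak, with 29 and 75. None of the 19 facial ectoderm and epithelium genes, among them Epcam, Krt5, Krt14 and Trp63, had a shared exonic peak. For a random sample of 19 genes with none, the approximate upper limit of the share would be 15.8%. The listed genes were not drawn at random.

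As a check of the tissue label, promoter peaks of the mesenchyme and neural crest markers Twist1, Prrx1, Msx1, Alx1, Tfap2a and Dlx5 were found in both libraries, with highest strengths from 64 to 94 in replicate 1 and from 107 to 134 in replicate 2. The epithelial marker Epcam had promoter peaks of up to 45 and 87, and Krt14 had none in replicate 1 and 2 in replicate 2, of up to 36. The globin gene Hba-a1 lacked a promoter peak in both libraries, and the liver marker Alb had 1, of strength 12, in replicate 1 alone.

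**Figure D4:**
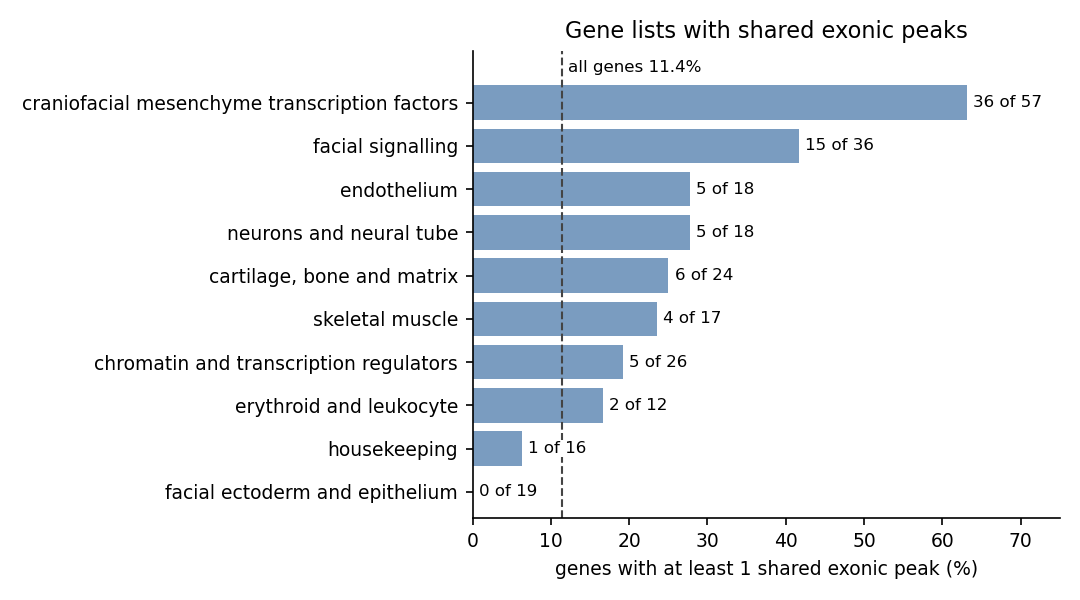
Share of the genes of each list, in percent, with at least 1 shared exonic peak, among genes with exon sequence over 1 kb from every TSS. The numbers beside the bars are genes with a peak of all such genes, and the dashed line marks the 11.4% of all genes; craniofacial transcription factors reach 63.2% and facial ectoderm 0.

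Genes whose bodies are known to hold enhancers were looked at apart. Hdac9, a histone deacetylase gene next to Twist1, had 2 shared exonic peaks, both in exon 25, the last. The peak in the 3′ UTR (chromosome 12, 34050456 to 34050605) had strengths of 23 and 72, and that in coding sequence (34052256 to 34052405) had 17 and 47. Replicate 2 also had a coding peak of strength 107 in exon 19 (34215416 to 34215565), overlapped over 90 bp by a replicate 1 peak of strength 39 that began 60 bp further on. The midpoint of that replicate 1 peak lay in the intron, so the rule did not take it. In exon 16 a replicate 2 coding peak of strength 74 was overlapped over 50 bp by a replicate 1 peak of strength 31, again with its midpoint in the intron.

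Dync1i1, a dynein gene next to Dlx5 and Dlx6, had no shared exonic peak. Its only exonic peak over 1 kb from a TSS was in replicate 2, in the 3′ UTR part of exon 17, with strength 65. Hoxa2, a patterning factor of the second pharyngeal arch, had coding peaks of 47 and 38 in replicate 1 without a match, and 1 of 62 in replicate 2 that overlapped a replicate 1 peak over 50 bp, under the limit. Lmbr1, whose intron holds the limb enhancer of Shh, had no exonic peak over 1 kb from a TSS in either library.

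Shared exonic peaks were rich in G and C. Their median GC content was 55.3%, that of unmatched exonic replicate 1 peaks 46.7%, that of shared intronic and intergenic peaks 50% and that of promoter peaks 64.0%. Coding peaks, at 61.3%, were nearest to promoters, followed by 5′ UTR peaks at 59.3%, 3′ UTR peaks at 52.3% and noncoding-transcript peaks at 50%. Each kind was above its own sequence, whose 150 bp tiles had medians of 50.7%, 45.3%, 43.3% and 43.3%. Coding peaks held 9.69 CpG dinucleotides per 150 bp on average, 3′ UTR peaks 3.9, promoter peaks 11.3, intronic peaks 2.77 and coding tiles 3.52. Repeats marked in the reference covered at least 50% of only 63 peaks (2.15%).

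The CTCF core was in 282 shared exonic peaks (9.64%), with 1 site in each. The share was 12.5% in 3′ UTRs (153 of 1226), 11.0% in noncoding-transcript exons (49 of 444), 7.27% in 5′ UTRs (4 of 55) and 6.33% in coding sequence (76 of 1201). Over the 150 bp tiles it was 0.108% in coding sequence, and in unmatched exonic peaks of replicate 1 it was 1 of 4103. Shared intronic peaks had it in 9.40%, intergenic peaks in 9.41% and promoter peaks in 1.87%. The share over all exonic peaks was thus close to that of intronic peaks, with coding sequence below and 3′ UTRs above it.

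CTCF sites lay close to the middle of the peaks. The median distance between the centre of the core and the peak's midpoint was 12 bp, and 206 of 282 (73.0%) were within 20 bp, as in Ror2 and Slc4a3, with 7 and 11 bp. The core lay on the strand of the gene in 117 peaks (41.5%) and on the other strand in 165. Peaks with the core had higher median strengths, 46 and 82, than those without, 32 and 63. The 4 such peaks in 5′ UTRs were an exception, with medians of 30.5 and 64 beside 44 and 78 without the core. When the peaks were put in 10 equal parts by mean rank of strength, the core was in 16.4%, 21.2% and 17.1% of the strongest 3 parts and in 1.02% of the weakest. Coding sequence made up 50% of the strongest part, 37.9% of the next and 35.8% of the weakest, with no steady order between. Peaks with the core had fewer CpG dinucleotides, 3.71 on average, than those without, 6.54. Among the 55 peaks in craniofacial factor genes, 1 had the core.

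Other motifs were searched on both strands as exact letters. The GC box GGGCGG, bound by SP and KLF factors, was in 17.2% of coding peaks and 12.4% of 3′ UTR peaks, beside 3.98% and 2.09% of the tiles and 43.7% of promoter peaks. The AP-2 sequence GCCNNNGGC, of the family of Tfap2a and Tfap2b, which act in neural crest and facial ectoderm, was in 13.9% of coding peaks and 6.93% of 3′ UTR peaks, beside 5.32% and 3.04% of the tiles. Both are made of G and C, and the GC content of these peaks was also above that of the tiles.

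The E-box CAGATG, of basic helix-loop-helix factors such as Twist1 and Neurog2, was in 13.5% of shared exonic peaks and in 19.5% of intronic peaks. In coding peaks its share, 13.1%, was near the 14.2% of coding tiles. The SOX sequence ACAANG was in 24.7% of exonic peaks, with 19.6% in coding sequence beside 28.8% of its tiles and 29.0% in 3′ UTRs beside 29.9%. The homeodomain sequence TAATTA was in 2.19%, the AP-1 sequence TGANTCA in 2.49%, GATA as AGATAA in 2.94%, ETS as CCGGAAG in 2.26%, TEAD as GGAATG in 8.71% and the nuclear receptor half-site AGGTCA in 7.21%. In both coding sequence and 3′ UTRs, peaks held the homeodomain, AP-1, AGATAA and nuclear receptor motifs less often than the tiles did. For AGATAA the shares were 2.08% and 3.67% of peaks, beside 5.87% and 8.90% of tiles. For ETS the peaks were above, with 3.08% and 1.71% beside 1.89% and 0.544%. For TEAD they were below in coding sequence, 5.33% beside 7.83%, and above in 3′ UTRs, 10.8% beside 8.10%. A match describes the letters and does not show binding.

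**Figure D5:**
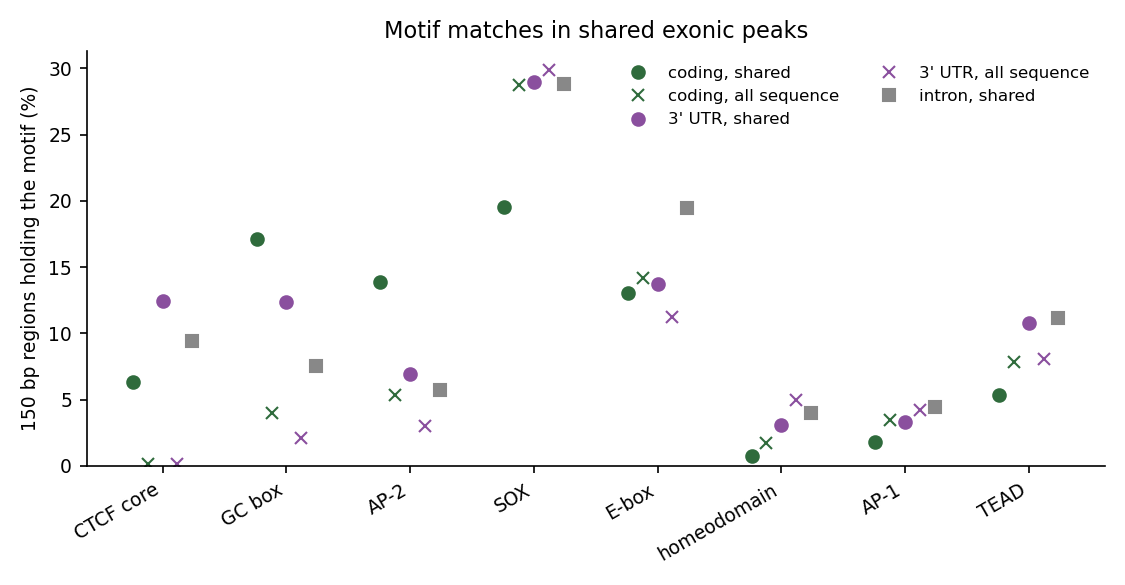
Share of 150 bp regions, in percent, that hold each of 8 searched motifs on either strand. Filled circles are shared peaks in coding sequence and 3′ UTRs, crosses are tiles of all such sequence over 1 kb from a TSS, and squares are shared intronic peaks; the CTCF core is in 6.33% and 12.5% of the peaks and near 0 in the tiles.

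The open domains around exonic peaks were mostly narrow. The hotspot that held a shared exonic peak had a median length of 314 bp in replicate 1 and 367 bp in replicate 2, beside 982 and 1187 bp for promoter peaks and 270 and 335 bp for intronic peaks. For the 5′ UTR peaks it was 599 and 894 bp. A length of at least 1000 bp in replicate 1 was reached by 452 peaks (15.4%). The −log10 q value deposited for the hotspot was at its maximum of 100 for 43.9% of the peaks in replicate 1 and 72.8% in replicate 2. The 2713 replicate 1 hotspots that held the peaks included 179 with 2 or more, and the most in a single one was 6, in Zic1.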

How the data were processed

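DNase-seq peaks (150 bp) and hotspots of 2 libraries, from embryos at day 11.5, were used as deposited by the authors in build mm10, called on each library's own alignments per the files' notes. No source used here names the aligner or caller. The peaks' strength is a score deposited by the authors in whole numbers, of unknown unit and depth. The hotspots carry a −log10 q value deposited by the authors. A peak's class came from its midpoint in GENCODE mouse release 21 (M21), with all transcripts of 20807 protein-coding genes and their 90262 TSSs, in the order coding, 5′ UTR, 3′ UTR, noncoding transcript. Sequence came from GRCm38 (the mm10 build), read with pysam 0.24.0. Tables were made in Python 3.11.15 with numpy 2.4.6 and pandas 2.3.3, and the overlap and class steps were tested on simulated peaks. The peaks, gene lists, motifs and naming rule were chosen with earlier results of these data known. Named were the 10 genes with most peaks and the 5 best mean ranks per coding, 5′ UTR and 3′ UTR class. Also named were genes of the lists, 4 genes whose bodies are known to hold enhancers, and the 2 best ranks with the CTCF core per class. Chromosomes X, Y and scaffolds were left out. Alternatives were the overlap, TSS distance, transcript set, class order, library and number of strongest peaks.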

Additional observations from a re-analysis of the deposited data

How the results depend on the processing

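With a match over at least 90% of the peak the shared exonic peaks numbered 927, with 43.5% in 3′ UTRs, 13.4% in noncoding transcripts and 910 genes. On the grid of peak starts, these were the peaks matched over the full 150 bp. Over 2.5 kb from every TSS they numbered 1949, with 38.7% coding, 0.770% in 5′ UTRs, 49.0% in 3′ UTRs and 11.5% in noncoding transcripts. With basic transcripts only, coding sequence held 52.8%, 5′ UTRs 3.31%, 3′ UTRs 43.9% and noncoding transcripts 0%, and the median GC content was 57.3%; by construction that set has no noncoding transcripts here. With UTRs placed before coding sequence, the coding share was 36.6% and the 3′ UTR share 46.0%. With only the 50000 strongest peaks of each library, 1147 peaks in 1062 genes were shared, with 2.70% in 5′ UTRs, 12.7% in noncoding transcripts, a median strength of 52 and a GC content of 58.0%. Replicate 2 peaks matched in replicate 1 had their own median strength of 65. Using 1 library alone, the number of exonic peaks was 7029 and 7286, the coding share 37.8% and 40.9%, the 5′ UTR share 1.38% and 1.78%, the 3′ UTR share 43.9% and 42.2%, the noncoding share 16.9% and 15.1%, the median strength 18 and 42, the GC content 50.7% and 53.3%, and the genes 3707 and 4537.

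The next 2 results and their alternatives were chosen after seeing the data. The share of craniofacial transcription factor genes with a peak was 70.2% with an overlap of 1 bp, 15.8% with 90% of the peak, 36.8% over 2.5 kb, 57.9% when TSSs of every gene type counted, 56.1% with basic transcripts, 22.8% with the 50000 strongest peaks, and 80.7% and 78.9% in 1 library alone. All genes had 12.4%, 4.58%, 8.15%, 10.9%, 11.1%, 5.34%, 18.7% and 22.8% in that order, each below the listed genes. The share of peaks with the CTCF core was 8.09% with 1 bp, 14.99% with 90% of the peak, 10.2% over 2.5 kb, 8.93% with basic transcripts, 16.8% with the 50000 strongest peaks, and 4.03% and 4.67% in 1 library alone. The cause of these changes was not tested. No paired analysis was possible because both libraries belong to 1 group. Depth is unknown, and its part in which peaks matched was not tested.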

Other observations

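The number of shared exonic peaks per Mb of exon sequence differed between chromosomes, from 29.9 on chromosome 16 to 60.8 on chromosome 19.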
